A study of Mus musculus with 12 samples.

Results

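Transcripts of the constant regions of the antigen receptors were followed through 3 progenitor types of mouse bone marrow, in 12 bulk RNA-seq libraries with 4 of each type. The set has 7 listed members: the T cell receptor gamma constant genes Tcrg-C1, Tcrg-C2 and Tcrg-C4, the immunoglobulin heavy chain constant genes Ighm, Ighd and Ighg2c, and the kappa light chain constant gene Igkc. They were chosen by name, with their levels in these libraries already known, so those levels are a description and carry no test. Of the 38924 rows of the deposited table, 6 matched a member by Ensembl ID through the GENCODE annotation of GRCm38 (mm10), and Ighd was not analysed here. Values are TPM, transcript abundances that are scaled by transcript length and by the library's total, so levels of different genes can be set side by side.

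The lymphoid-primed multipotent progenitors (LMPP) were sorted as Lin- Sca1+ cKit+ CD150- CD34+ Flk2hi cells, which keep several fates open with a bias to lymphocytes. The common lymphoid progenitors (CLP) were Lin- Sca1lo cKitlo IL7Ra+ Flk2+ cells, which feed mainly the B, T and NK lineages. The granulocyte-monocyte progenitors (GMP) were Lin- Sca1- cKit+ CD150- CD34+ FcgR+ cells, which feed the myeloid lineages. All came, by their labels, from untreated wild-type female C57Bl/6J mice. In the labelled protocol, marrow cells bearing CD3e, CD11b, B220, Gr-1 or TER-119 were depleted before sorting. This step should remove most T cells, B cells, granulocytes and red cell precursors. The protocol describes single-cell work, and whether the bulk libraries were prepared in the same way is not given. By their titles, each type has 2 libraries from batch 1 and 2 from batch 2. The sources used here give neither the age of the mice nor the number of cells per library. They also do not say whether libraries of 1 type are from different animals, and p-values therefore measure spread between samples that may be technical replicates.

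An antigen receptor chain is encoded in pieces. Variable (V), diversity (D) and joining (J) segments are cut and joined in each developing lymphocyte by the Rag1 and Rag2 recombinase, and the joined exon is then spliced to a constant region. Constant regions are also transcribed from unrearranged, germline loci, both before V(D)J joining, when such sterile transcripts accompany the opening of the locus, and before class switching of the heavy chain. In the heavy chain, Ighm encodes the mu constant region that is used first, and Ighg2c a gamma constant region that is used after switching. Igkc encodes the constant region of the kappa light chain, which normally rearranges after the heavy chain. Tcrg-C1, Tcrg-C2 and Tcrg-C4 each serve their own cluster of V and J segments at the gamma locus of gamma delta T cells.

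The near identity of some members bears on how reads can be assigned to them, so the first 90 coding bases of the gamma constant genes and of the pair Ighg2c and Ighg2b are shown in the direction of transcription, with capitals at each base that differs from the first sequence of the group. They come from the GENCODE transcripts of GRCm38.
Tcrg-C1 (chr13:19214103-19214192, plus strand): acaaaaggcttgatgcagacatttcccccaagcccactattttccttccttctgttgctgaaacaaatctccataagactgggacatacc
Tcrg-C2 (chr13:19307462-19307551, minus strand): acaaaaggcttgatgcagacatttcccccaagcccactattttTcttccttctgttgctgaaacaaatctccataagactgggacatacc
Tcrg-C3 (chr13:19260885-19260974, plus strand): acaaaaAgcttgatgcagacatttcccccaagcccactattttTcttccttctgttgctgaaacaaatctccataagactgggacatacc
Tcrg-C4 (chr13:19344558-19344647, plus strand): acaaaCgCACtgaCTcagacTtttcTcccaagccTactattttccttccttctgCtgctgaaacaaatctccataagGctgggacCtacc
Ighg2c (chr12:113288843-113288932, minus strand): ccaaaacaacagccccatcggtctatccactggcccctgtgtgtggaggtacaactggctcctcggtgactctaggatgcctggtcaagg
Ighg2b (chr12:113307844-113307933, minus strand): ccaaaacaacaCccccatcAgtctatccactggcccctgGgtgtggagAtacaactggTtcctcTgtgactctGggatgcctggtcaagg

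Over this stretch Tcrg-C2 differed from Tcrg-C1 at 1 base, Tcrg-C3 at 2 bases and Tcrg-C4 at 12 bases, and Ighg2b differed from Ighg2c at 7 bases. In alignments of whole transcripts, with gaps left out of the share, Tcrg-C1 was 96.0% identical to Tcrg-C2, 97.2% to Tcrg-C3 and 68.0% to Tcrg-C4. The gaps came to 20, 278 and 79 bases. Of all 50-base windows of the Tcrg-C1 transcript, 34.2% also occurred in another gene of the annotation, and the share was 25.4% for Tcrg-C2 and 6.01% for Ighg2c. No window of Tcrg-C4, Ighm or Igkc was shared. RSEM, named in the submitters' processing notes, splits a read with several matching transcripts among them by estimation, so the split between Tcrg-C1 and Tcrg-C2 is uncertain, while Tcrg-C4, Ighm and Igkc have no copy of that length to trade reads with.

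Several libraries stand apart and touch the results below. In the CLP libraries of batch 2, Flt3, which encodes the gate protein Flk2, was at 8.91 and 17.0 TPM, against 138 and 146 TPM in the CLP libraries of batch 1. Cd34 was at 17.0 and 14.8 TPM against 111 and 164 TPM. The transcript level of Flt3 in these batch 2 libraries thus goes against their Flk2+ label. In CLP batch 2 replicate 2, Ly6a, which encodes Sca1, was at 2.24 TPM, below the 4.86 to 9.86 TPM of the Sca1- GMP libraries and the 27.3 to 37.6 TPM of the other CLP libraries, and so goes against its Sca1lo label. The gate gene Il7r was high in all 4 CLP libraries (76.64 to 129.77 TPM). Markers of red cell precursors and of mature neutrophils were highest in LMPP batch 2 replicate 1, where the 7 erythroid markers summed to 28459 TPM and the 8 neutrophil markers to 24609 TPM. They were next highest in CLP batch 2 replicate 1, at 13550 and 11251 TPM, and the other 10 libraries reached at most 2476 and 1839 TPM. This pair is called haemoglobin-rich below.

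**Figure D1:**
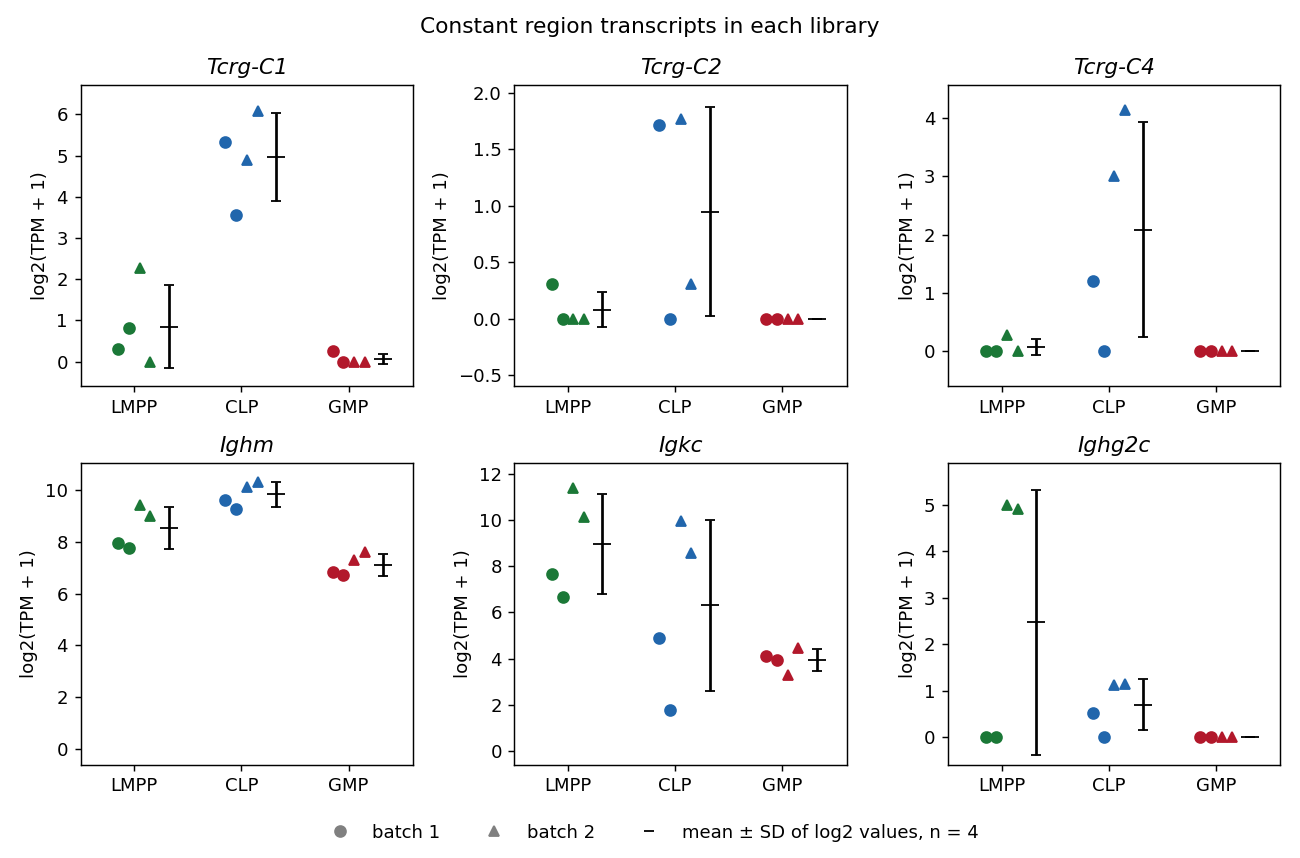
Each panel gives 1 constant gene, with log2(TPM + 1) on the vertical axis and the 3 cell types on the horizontal axis. Points are libraries (circles batch 1, triangles batch 2), and the black bars are the mean and SD of the 4 log2 values. The CLP points of Tcrg-C1 lie above all others, Ighm steps up from GMP through LMPP to CLP, and Igkc and Ighg2c are highest in LMPP of batch 2.

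Tcrg-C1 was a CLP transcript in these libraries. This gene (ENSMUSG00000076749, chr13:19214103-19217024, plus strand) stood at 38.95 and 10.72 TPM in the CLP libraries of batch 1 and reached 28.71 and 66.74 TPM in those of batch 2. The LMPP libraries held 0.23, 0.77, 3.87 and 0 TPM, and 1 GMP library held 0.19 TPM while the other 3 were listed at 0. Every CLP library thus stood above every LMPP and GMP library, and the CLP mean was 36.3 ± 23.4 TPM (SD, n = 4), against 1.22 ± 1.80 TPM for LMPP and 0.0475 ± 0.0950 TPM for GMP. LMPP and GMP overlapped. The highest LMPP value, 3.87 TPM, was in the haemoglobin-rich library, without which the LMPP mean was 0.333 TPM, and the GMP mean rested on its 1 library above 0. The CLP libraries of batch 1, with Flt3 at the level of LMPP, were also above every LMPP library, so this order does not rest on the batch 2 CLP libraries.

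The other gamma constant genes were lower and less even. Tcrg-C4 (ENSMUSG00000076757, chr13:19344558-19352756, plus strand) was at 1.31 and 0 TPM in CLP of batch 1 and higher, at 7.01 and 16.64 TPM, in CLP of batch 2. It was at 0.21 TPM in the haemoglobin-rich LMPP library and listed at 0 in the other 3 LMPP and all 4 GMP libraries. Only the batch 2 CLP libraries carried more than 1.31 TPM of it, and CLP and LMPP overlapped because CLP batch 1 replicate 2 was listed at 0. Tcrg-C2 (ENSMUSG00000076752, chr13:19304649-19307551, minus strand) was at 2.28 and 0 TPM in CLP of batch 1, 2.41 and 0.24 TPM in CLP of batch 2, and 0.24 TPM in LMPP batch 1 replicate 1. Its other 3 LMPP and all 4 GMP libraries were listed at 0. The ratio between the genes was not fixed: the CLP library with the most Tcrg-C1 and Tcrg-C4 held 0.24 TPM of Tcrg-C2. Tcrg-C3, which is no member, reached 0.26 TPM at most.

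Ighm, like Igkc, was present at over 1 TPM in every library of every type. The gene (ENSMUSG00000076617, chr12:113418558-113422730, minus strand) was at 780.09, 620.38, 1113.53 and 1278.53 TPM in CLP. It was at 248.02, 213.79, 678.86 and 507.93 TPM in LMPP and at 112.18, 104.35, 155.84 and 194.01 TPM in GMP. The mean of CLP was 948 ± 301 TPM, that of LMPP 412 ± 221 TPM and that of GMP 142 ± 41.6 TPM (SD, n = 4 each), which put CLP 2.30-fold above LMPP and 6.70-fold above GMP. The GMP libraries lay below all LMPP and all CLP libraries. CLP and LMPP overlapped over both batches, because the haemoglobin-rich LMPP library (678.86 TPM) exceeded the lowest CLP library (620.38 TPM). Within each batch both CLP libraries stood above both LMPP libraries.

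Ighm was also higher in batch 2 than in batch 1, without overlap, in each of the 3 types. The batch means were 593 against 231 TPM in LMPP, 1196 against 700 TPM in CLP and 175 against 108 TPM in GMP. Of all tested genes, 13.1% had the same order between batches in all 3 types, so this is a shared feature of the batches and not particular to Ighm. None of the other 5 members with a row showed it.

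Igkc had another order, with LMPP highest. The gene (ENSMUSG00000076609, chr6:70726435-70726966, plus strand) was at 204.22 and 100.29 TPM in LMPP of batch 1 and reached 2668.74 and 1105.01 TPM in LMPP of batch 2. The CLP libraries held 28.89 and 2.39 TPM in batch 1 but 997.22 and 381.43 TPM in batch 2, and the GMP libraries 16.52, 14.28, 8.86 and 20.68 TPM. The mean of LMPP was 1020 ± 1188 TPM, that of CLP 352 ± 463 TPM and that of GMP 15.1 ± 4.92 TPM (SD, n = 4 each), with an SD above the mean for both LMPP and CLP. Without the haemoglobin-rich library of each type, the mean of LMPP fell to 470 TPM and that of CLP to 138 TPM. LMPP and CLP overlapped over all 8 libraries, yet within each batch both LMPP libraries stood above both CLP libraries. CLP and GMP overlapped as well, with the lowest value of all 12 libraries, 2.39 TPM, in CLP batch 1 replicate 2. The level of Igkc relative to Ighm was 3.93 and 2.18 in LMPP of batch 2, 0.823 and 0.469 in LMPP of batch 1, and 0.0569 to 0.147 in GMP. In CLP it was 0.0370 and 0.00385 in batch 1 and 0.896 and 0.298 in batch 2, so Igkc exceeded Ighm in the 2 LMPP libraries of batch 2 alone.

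Ighg2c was largely an LMPP transcript of batch 2. The gene (ENSMUSG00000076612, chr12:113285325-113288932, minus strand) was at 30.75 and 29.01 TPM in the LMPP libraries of batch 2 and listed at 0 in those of batch 1. CLP libraries held 0.42, 0, 1.16 and 1.22 TPM, and all 4 GMP libraries were listed at 0. Within batch 2 both LMPP libraries stood above both CLP libraries, and only 1 of these LMPP libraries was haemoglobin-rich.

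Counted over the 6 members with a row, 1 (Tcrg-C1) had every CLP library above every LMPP library. Of all 12718 genes tested, 2.27% had that order; since the members were chosen with these values known, nothing is read from the count. Against GMP, 2 members (Tcrg-C1 and Ighm) had every CLP library higher, an order held by 11.8% of genes tested. Another 2 (Ighm and Igkc) had every LMPP library above every GMP library, as did 22.7% of genes tested. When order was required within both batches instead, Tcrg-C1 and Ighm were higher in CLP than in LMPP (5.1% of genes tested) and Igkc was higher in LMPP than in CLP (14.5%). The same 2 members as above were then higher in CLP than in GMP (19.2% of genes tested) and in LMPP than in GMP (32%). Only 4 members had at least 1 TPM in at least 4 libraries, the filter applied to genes that were tested, and Tcrg-C2 and Tcrg-C4 did not.

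**Figure D2:**
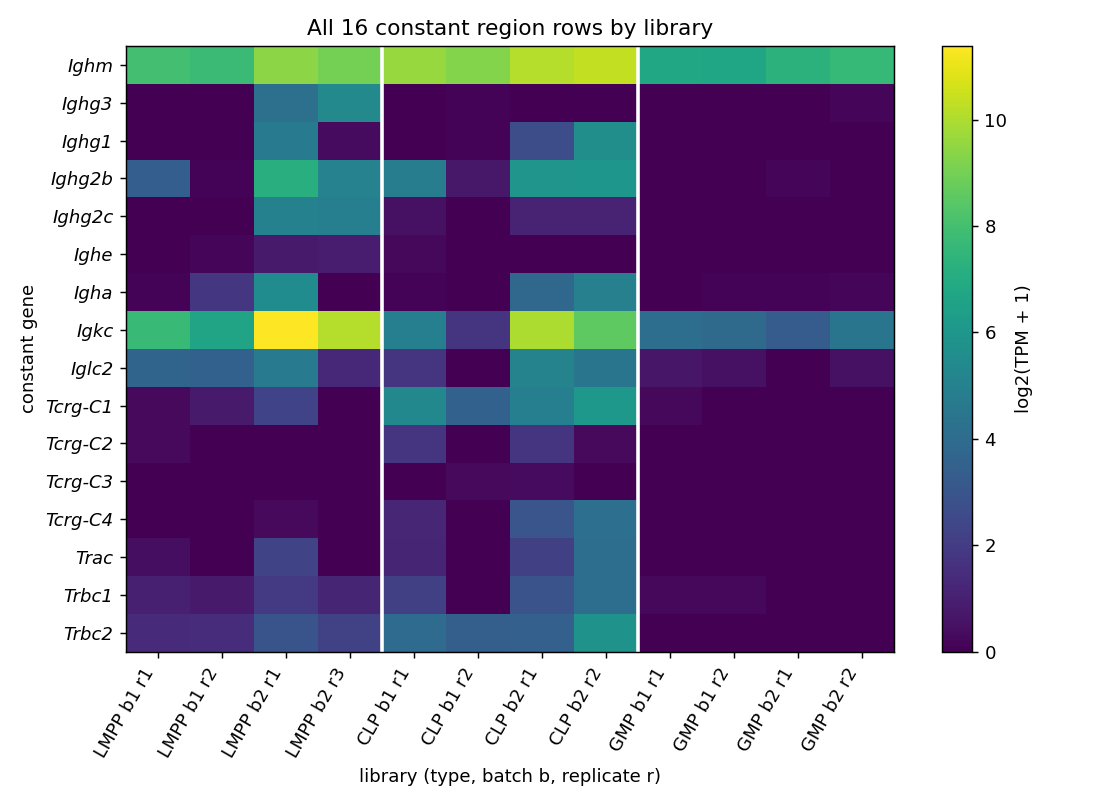
Rows are the 16 constant region genes with a row in the table, columns are the 12 libraries (b, batch; r, replicate), and colour is log2(TPM + 1) from dark (0) to yellow. White lines separate LMPP, CLP and GMP. The GMP columns are dark except for Ighm and Igkc, and the switched heavy chain genes are bright mainly in LMPP and CLP of batch 2.

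The remaining constant genes extended these patterns. The annotation holds 21 constant region genes, of which 16 had a row, and 8 of the 10 that are not members reached 5 TPM in some library. Among the switched heavy chain genes, Ighg2b was at 9.60, 0.08, 146.22 and 31.73 TPM in LMPP and at 27.52, 0.64, 59.71 and 61.40 TPM in CLP, and GMP did not exceed 0.16 TPM. Ighg1 was highest in CLP batch 2 replicate 2, at 48.57 TPM, and Ighg3 in LMPP batch 2 replicate 3, at 39.75 TPM. Igha reached 45.54 TPM in the haemoglobin-rich LMPP library and 30.20 TPM in CLP batch 2 replicate 2. Within libraries, Ighg2b was the highest switched gene in all CLP libraries and in LMPP replicate 1 of both batches. Igha (2.47 TPM) led in LMPP batch 1 replicate 2 and Ighg3 in LMPP batch 2 replicate 3. The lambda light chain gene Iglc2 ranged over 1.52 to 25.41 TPM among LMPP libraries, 0 to 33.53 TPM among CLP libraries and 0 to 0.61 TPM among GMP libraries.

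Summed over the 6 switched heavy chain genes, LMPP held 9.69 and 2.71 TPM in batch 1 and 265.16 and 101.62 TPM in batch 2. CLP held 28.20 and 0.80 TPM in batch 1 and 79.59 and 141.39 TPM in batch 2, and GMP between 0 and 0.24 TPM. Expressed against Ighm in the same library, the switched sum was 39.1% and 20.0% in LMPP of batch 2 and 3.91% and 1.27% in LMPP of batch 1. It was 7.15% and 11.1% in CLP of batch 2, 3.61% and 0.129% in CLP of batch 1, and at most 0.154% in GMP. GMP thus carried Ighm with next to no switched transcripts, while both LMPP and CLP carried more of them in batch 2 than in batch 1.

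At the T cell receptor loci, Trbc2 followed the CLP pattern of Tcrg-C1, with 14.78, 9.85, 10.18 and 56.61 TPM in CLP, 1.57 to 6.81 TPM in LMPP and no GMP library above 0. Trbc1 reached 16.17 TPM and Trac 16.49 TPM, both in CLP batch 2 replicate 2, the library that also had the most Tcrg-C1 and Tcrg-C4. In CLP batch 1 replicate 2, which had 10.72 TPM of Tcrg-C1 and 9.85 TPM of Trbc2, Trac and Trbc1 were listed at 0.

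Variable segments were then set beside the constant genes. The table has 336 rows of V segments, 75 of J and 22 of D. All J rows (38 to 66 bases long) and all D rows (10 to 29 bases) were listed at 0 in every library, also where Ighm was at 1278.53 TPM, so the values give no information on J or D use. V rows, 294 to 595 bases long, were above 0 in some library for 207 of 336. A gene-level TPM does not separate a germline transcript from a rearranged one at either the V or the constant gene, and the V sums are given as levels only.

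The heavy chain V rows were higher in LMPP and CLP than in GMP, but between LMPP and CLP they did not follow Ighm. Summed over 104 rows they came to 99.1, 61.6, 537 and 283 TPM for LMPP, 131, 104, 453 and 245 TPM for CLP, and 7.25, 8.09, 0.490 and 7.69 TPM for GMP. As a share of the Ighm level, the V sum was 40.0%, 28.8%, 79.1% and 55.6% in LMPP and 16.7%, 16.8%, 40.6% and 19.2% in CLP. In GMP it was 0.314% to 7.75%. The 4 LMPP libraries thus held less Ighm than the CLP libraries of their batch but more V transcript per Ighm transcript, and GMP held Ighm with few V transcripts. Between 20 and 61 V rows reached 1 TPM in LMPP, 25 to 46 in CLP and 0 to 3 in GMP. The V rows with the highest mean in CLP were Ighv1-26 (1.32, 6.31, 44.23 and 18.95 TPM), Ighv14-2 (1.32, 0, 38.22 and 26.42 TPM) and Ighv1-53 (4.37, 1.18, 11.63 and 24.93 TPM), all higher in batch 2 than in batch 1.

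The kappa V rows were high in the libraries where Igkc was high. Over 97 rows the sum was 96.2, 46.7, 893 and 338 TPM for LMPP, 7.72, 8.23, 345 and 149 TPM for CLP and 2.31 to 7.75 TPM for GMP. As a share of the Igkc level this was 22.2% to 54.3% in 11 libraries. In CLP batch 1 replicate 2 the V sum (8.23 TPM) was above Igkc itself (2.39 TPM), a share of 344%. Single V rows were uneven between LMPP libraries: Igkv15-103 was at 22.19 and 92.60 TPM in replicate 1 of batches 1 and 2 and listed at 0 in the other LMPP libraries. Igkv12-89 was at 8.60, 34.43 and 44.71 TPM in the 3 LMPP libraries other than batch 1 replicate 1, and listed at 0 there and in all CLP and GMP libraries. Igkv14-126 was at 31.86 and 55.41 TPM in LMPP of batch 2, at 3.46 TPM in LMPP batch 1 replicate 2 and at 49.17 TPM in the haemoglobin-rich CLP library.

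The gamma locus stood in contrast, with constant transcript and almost no V transcript. The 6 gamma V rows were all listed at 0 in both CLP libraries of batch 1, where Tcrg-C1 was at 38.95 and 10.72 TPM. In CLP of batch 2 the sums were 0.380 TPM, all from Tcrg-V4, and 5.64 TPM, all from Tcrg-V1, in the library with 66.74 TPM of Tcrg-C1. The haemoglobin-rich LMPP library held 0.730 TPM of Tcrg-V4, and the other 3 LMPP and all GMP libraries were at 0. Tcrg-V1 lies close to Tcrg-C4 on chromosome 13 (19339989 to 19340454), and the same library had the most Tcrg-C4. At the lambda locus, Iglv1 reached 29.46 and 42.38 TPM in CLP of batch 2 and 23.44 TPM in the haemoglobin-rich LMPP library.

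**Figure D3:**
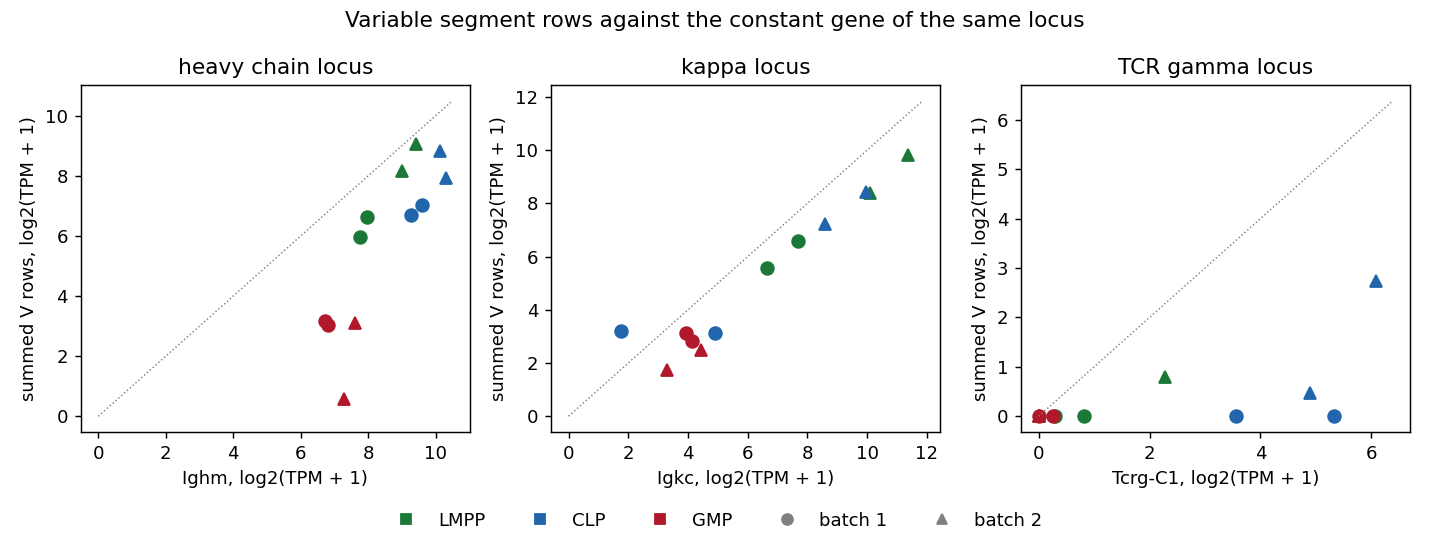
Each point is a library, with the constant gene on the horizontal axis and the sum of the V rows of its locus on the vertical axis, both as log2(TPM + 1); colour gives the type, shape the batch, and the dotted line equal levels. Kappa points lie below the line in 11 of 12 libraries, GMP points fall far below it at the heavy chain locus, and the CLP points of the gamma locus lie near the bottom.

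Genes that build or accompany the receptors were compared between the types in the same libraries. The lists leave the members out and hold 15 genes of receptor assembly and partner chains, and 26 factors known to act at receptor loci, of which 37 of 41 passed the filter. The lists were chosen with earlier results of these data known, so their counts and p-values are a description and give no independent support. The factors include Il7r, a gate gene of CLP. Each gene was fitted on log2(TPM + 1) with limma over all 12 libraries, with type and batch as terms, and was called at a Benjamini-Hochberg adjusted p under 0.05 over all genes tested.

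Between CLP and LMPP, 10 of 12 tested assembly genes and 8 of 25 tested factors were higher in CLP, and none was lower. Over all genes tested, 2.8% were higher and 7.23% lower. The median log2 difference was 3.3 for the assembly list and 0.62 for the factors, against -0.17 for all genes. Rag1, a subunit of the recombinase, was at 38.46, 6.00, 35.78 and 64.60 TPM in CLP and 0.51 to 4.00 TPM in LMPP, with no overlap and a difference of 3.75 on the log2 scale (SE 0.542, limma adjusted p = 0.00168). Rag2, its partner, named here for its large difference from GMP, was at 61.43 to 89.04 TPM in CLP against 7.94 to 11.10 TPM in LMPP (log2 difference 2.84, SE 0.240, limma adjusted p = 8.62e-05). Dntt, the terminal transferase that adds bases at V(D)J joints, was already at 485.27 to 698.40 TPM in LMPP and at 921.71 to 1848.22 TPM in CLP (log2 difference 1.28, limma adjusted p = 0.00245).

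The surrogate light chain, which pairs with the mu chain in the pre-B cell receptor, had the widest spread within CLP. Igll1, its lambda5 part, was at 314.70 and 0.13 TPM in CLP of batch 1 and 2222.34 and 2677.42 TPM in batch 2, against 0 to 11.02 TPM in LMPP (log2 difference 5.69, SE 1.61, limma adjusted p = 0.044). Vpreb1, Vpreb2 and Vpreb3 had log2 differences of 5.39, 3.95 and 4.81. The receptor signalling chain Cd79a differed by 4.30, and the B lineage factors Ebf1 and Pax5 by 4.43 and 4.10. CLP batch 1 replicate 2 had little of any of these (Cd79a 0.82 TPM, Vpreb1 1.33 TPM, Pax5 0.81 TPM), though its Ighm was at 620.38 TPM and its Rag2 at 61.43 TPM. Under other settings and with libraries left out, Igll1, Vpreb3 and Cd79a were called in 3 of 18 alternatives, Pax5 in 7 of 18, Vpreb1 in 8 of 17, Vpreb2 in 10 of 11 and Ebf1 in 16 of 18, in the same direction in all of them. Without both CLP libraries of batch 2, 8 companion genes were called higher in CLP in place of 18, and without the haemoglobin-rich pair also 8. Leaving out any single LMPP library, or any CLP library other than batch 1 replicate 2, gave 7 to 11 calls, and leaving out CLP batch 1 replicate 2 gave 21. Named after their values were seen, the 5 genes called under every alternative in which they passed the filter were Rag1, Rag2, Dntt, Tcf3 and the gate gene Il7r.

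Between CLP and GMP, 11 of 12 assembly genes and 18 of 25 factors were higher in CLP, and 1 factor was lower. Over all genes tested, 13.9% were higher and 9.96% lower. Median log2 differences were 4.83 and 1.56, against 0.09 for all genes. Dntt, at 0.31 to 0.97 TPM in GMP, differed by 9.66 (SE 0.195, limma adjusted p = 2.60e-11), and Rag2, at 0.65 to 2.72 TPM in GMP, by 4.97. Il7r differed by 6.27 and is part of the gate. Igll1 (5.94), Vpreb3 (5.82), Vpreb1 (5.73), Ebf1 (5.54) and Cd79a (5.21) were the others of the 8 largest log2 differences. Spi1, the myeloid and early lymphoid factor PU.1, was the lower gene, with 11.57 to 39.82 TPM in CLP against 60.52 to 104.69 TPM in GMP (log2 difference -1.61, limma adjusted p = 5.68e-04). Without both CLP libraries of batch 2, 13 genes were called in place of 30.

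Between LMPP and GMP, 4 of 12 assembly genes and 7 of 25 factors were higher in LMPP, and Spi1 was lower (log2 difference -0.97, limma adjusted p = 0.0113). Over all genes tested, 21.3% were higher and 7.62% lower, so the assembly and factor counts are to be read against a comparison in which many genes were called. Dntt (8.38), Jchain (2.95), Il7r (2.86), Rag2 (2.13), Id2 (2.03), Bcl11a (2.00), Ets1 (1.39) and Cd247 (1.19) had the largest log2 differences among those higher. Rag1 was not among the called genes of this comparison, and neither were the surrogate light chain genes. Jchain, which joins secreted antibody units, was at 2.16, 5.93, 34.67 and 9.62 TPM in LMPP and at most 0.69 TPM in GMP. It was not called between CLP and LMPP (log2 difference -0.53, limma adjusted p = 0.633).

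**Figure D4:**
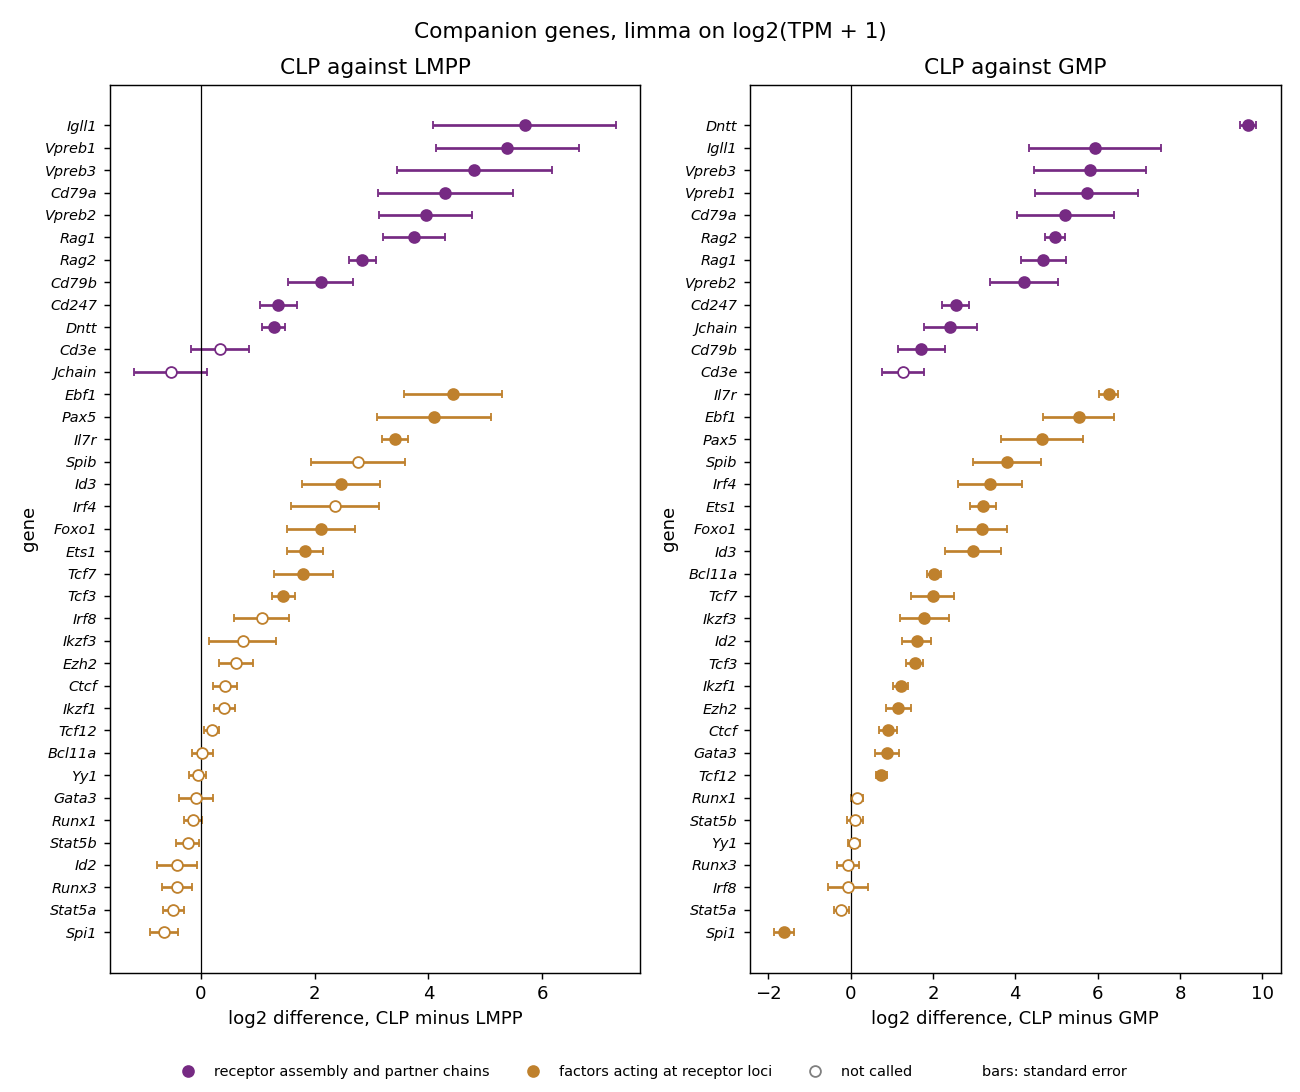
Log2 differences of the 37 tested companion genes in CLP minus LMPP (left) and CLP minus GMP (right), with bars for the standard error. Purple marks receptor assembly and partner chains, brown marks factors acting at receptor loci, and filled points were called at a limma adjusted p under 0.05. Most assembly genes lie to the right of 0 in both panels, and Spi1 is the called gene to the left.

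The genes whose levels followed each member most closely over the 12 libraries are given as a description. The points share libraries, types and batches, so no p is attached. Tcrg-C1 was most like Rag1 (Pearson r = 0.99 on log2(TPM + 1)), followed by Lynx1 (0.982), the B lineage kinase gene Blk (0.968), Socs2 (0.966) and the cyclin gene Ccnd3 (0.964). Levels of Tcrg-C1 and Rag1 ran side by side within CLP too: 38.95 with 38.46, 10.72 with 6.00, 28.71 with 35.78 and 66.74 with 64.60 TPM. Tcrg-C4 was most like Acss1, Lgr5 and Cplx2 (each 0.979), Smarca4 (0.978) and the T cell factor gene Tcf7 (0.977). Ighm was most like the integrin gene Itga4 (0.969), Foxp1 (0.967), Inpp5d (0.964), E2f7 and Sh2b3 (both 0.961). Igkc was most like Samd9l (0.952), Fam213a (0.939), Arhgef12 (0.929), Cytip (0.927) and Pira2 (0.924), none of them in the assembly or factor lists. Ighg2c was most like Gm26789 (0.937), Mmp12 (0.925), Ikbkb (0.908), Gm15758 (0.907) and Esr1 (0.899).

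Markers of mature cells were read beside the members. The depletion named in the labels should remove most T cells, B cells, granulocytes and red cell precursors. Whether it also removed plasma, NK or innate lymphoid cells is not given. In bulk libraries, fewer cells of a type and less RNA per cell cannot be told apart. Over the 12 libraries Igkc correlated with the summed erythroid markers at r = 0.807 and with the neutrophil markers at r = 0.74 on the log2 scale. For Ighg2c these values were 0.601 and 0.621, for Ighm 0.425 and 0.317, and for Tcrg-C1 0.315 and 0.185. For these 2 lists the correlations of Igkc and Ighg2c were higher than those of Ighm and Tcrg-C1. For the mature B cell and plasma cell lists the order was the other way round: r was 0.946 and 0.702 for Ighm, 0.856 and 0.79 for Tcrg-C1, 0.637 and 0.439 for Igkc, and 0.362 and 0.112 for Ighg2c. Ranked by their neutrophil sum, the 4 LMPP libraries (29.6, 205, 1657 and 24609 TPM) had Igkc at 100.29, 204.22, 1105.01 and 2668.74 TPM, the same order. The 4 CLP libraries (11.7, 171, 1839 and 11251 TPM) had it at 2.39, 28.89, 381.43 and 997.22 TPM, again in the same order and below the LMPP libraries of like rank. The heavy chain V sums also followed this rank in both types, and Ighm did so in LMPP (213.79, 248.02, 507.93 and 678.86 TPM). In CLP, Ighm was at 1278.53 TPM in batch 2 replicate 2 and lower, at 1113.53 TPM, in batch 2 replicate 1. In both types the lower neutrophil sums were those of batch 1, so marker level and batch cannot be told apart across batches. The order of Igkc did not carry across types. The GMP libraries of batch 1, with 1201 and 1421 TPM of neutrophil markers, held 16.52 and 14.28 TPM of Igkc. LMPP batch 1 replicate 2, with 29.6 TPM of neutrophil markers, held 100.29 TPM.

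The sum of the 12 mature B cell markers lay at 32.9 to 73.6 TPM for LMPP, 42.3 to 365 TPM for CLP and 6.45 to 6.83 TPM for GMP. Between 2 and 11 of the 12 reached 1 TPM in LMPP, with 11 in the haemoglobin-rich library, between 5 and 10 in CLP, and 1 or 2 in GMP. Ms4a1, which encodes the mature B cell protein CD20, was at 3.96 TPM in the haemoglobin-rich LMPP library, 6.51 and 18.56 TPM in CLP of batch 2, and no more than 0.82 TPM in the other 9 libraries. It was listed at 0 in both CLP libraries of batch 1, where Ighm was at 780.09 and 620.38 TPM. Of the B cell list, 2 of 8 tested genes (Blk and Cxcr5) were higher in CLP than in LMPP, 7 were higher in CLP than in GMP, and 2 (Cd72 and Bank1) were higher in LMPP than in GMP, with none lower. Cxcr5 passed the filter through its CLP libraries alone (1.32 to 2.71 TPM), so its calls as higher in CLP are tied to the filter. Of all genes tested, 2.8%, 13.9% and 21.3% were higher in these comparisons, so the count between LMPP and GMP was near that share.

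The 9 plasma cell markers, which include Jchain and the factor Irf4 of the lists above, summed to 52.2 to 135 TPM for LMPP, 54.3 to 975 TPM for CLP and 66.5 to 95.4 TPM for GMP. Xbp1 led this sum in every LMPP and GMP library. Without Xbp1 the sum was 10.3 to 83.4 TPM for LMPP and 0.950 to 4.44 TPM for GMP. Of these 9, LMPP had 4 to 7 at 1 TPM or more, CLP 5 to 8, and GMP 1 or 2. Pou2af1, a coactivator of B lineage genes, led the list in the CLP libraries other than batch 1 replicate 2, where Xbp1 led. It was at 68.82 and 0.38 TPM in CLP of batch 1 and 609.29 and 782.38 TPM in batch 2. Mzb1 was at 30.57 and 1.10 TPM in CLP of batch 1 and 91.18 and 76.65 TPM in batch 2. Of the 8 tested genes of this list, 6 were higher and 1 lower in CLP than in GMP, 2 were higher in CLP than in LMPP with 0 lower, and 2 were higher and 1 lower in LMPP than in GMP. Derl3, called higher in CLP in both comparisons, passed the filter through its CLP libraries alone (1.14 to 2.55 TPM), so these calls are tied to the filter. In the same order, 13.9%, 2.8% and 21.3% of all genes tested were higher and 9.96%, 7.23% and 7.62% lower. The counts between LMPP and GMP were near those shares. Prdm1, a defining factor of plasma cells, reached 1.49 TPM in the haemoglobin-rich LMPP library and 0.59 TPM or less elsewhere. Other genes of the list were higher: Jchain was at 0.83 and 1.30 TPM in CLP of batch 1 and 16.81 and 24.28 TPM in batch 2. Sdc1 had the opposite order between batches, with 22.68 and 16.87 TPM in CLP of batch 1 and 5.90 and 10.32 TPM in batch 2. The part of mature B cells, plasma cells, neutrophils and red cell precursors in the levels of Igkc, Ighg2c and the switched genes was not tested.

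For the gamma genes the 25 T, NK and innate lymphoid markers are the matching list. Their sum was led by Nkg7, which is also a GMP transcript here, and without Nkg7 it was 29.1 to 42.0 TPM for LMPP, 44.3 to 81.4 TPM for CLP and 6.00 to 12.9 TPM for GMP. The 25 markers had 7 to 13 members at 1 TPM in LMPP and in CLP and 2 to 6 in GMP. In CLP of batch 1, with 38.95 and 10.72 TPM of Tcrg-C1, the T cell receptor partner Cd3e was at 0.34 and 0 TPM, Cd3g at 0.69 and 0 TPM, and Cd3d at 1.58 and 0.40 TPM. In the same libraries other genes of the list had their highest values of all 12 libraries: the kinase gene Lck was at 41.39 and 25.24 TPM, Lat at no less than 13.95 TPM and Cd6 at 7.92 and 8.03 TPM. The part of T, NK or innate lymphoid cells in the levels of the gamma genes was not tested. Cd3e was highest, at 10.39 TPM, in CLP batch 2 replicate 2, the library with most Tcrg-C1, Tcrg-C4, Trac and Tcrg-V1. The gamma delta T cell markers Il23r and Cd163l1 were listed at 0 in all 12 libraries and at no more than 0.31 TPM, respectively. Ptcra, the pre-T alpha chain, was at 0.17 TPM in CLP batch 1 replicate 1 and listed at 0 elsewhere. Of the 12 tested genes of this list, none was higher and 1 (Nkg7) was lower in CLP than in LMPP, which is near the share of all genes. Against GMP, 5 were higher and 2 lower in CLP, and likewise 5 and 2 in LMPP. In the same order, 2.8%, 13.9% and 21.3% of all genes tested were higher and 7.23%, 9.96% and 7.62% lower.

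**Figure D5:**
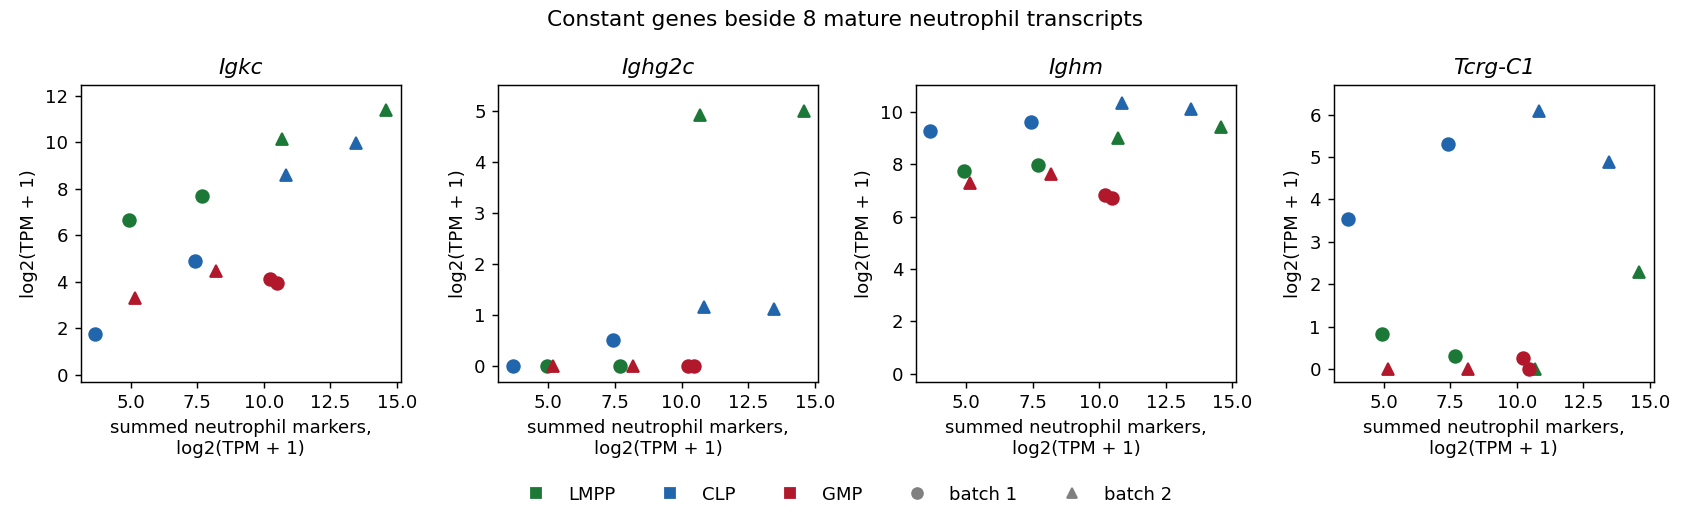
Each panel sets 1 constant gene (vertical axis) against the sum of 8 neutrophil markers (horizontal axis), both as log2(TPM + 1), with a point per library, colour for the type and shape for the batch. Igkc climbs with the markers within LMPP and within CLP, while Tcrg-C1 is split by type at all marker levels.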

How the data were processed

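The deposited table gives TPM per Ensembl gene ID, computed by the authors; each library sums to between 999999 and 1000001. The submitters' processing notes name Bowtie2 2.2.0, RSEM 1.2.12, edgeR 3.10.0 and the mm10 build, without order or settings. The sources used here do not say whether reads were counted by strand, so antisense reads may be included. Sequencing depth cannot be read from TPM; no counting interval is given, and a value of 0 is called listed at 0. Another 17 columns were not matched to these samples and were not used.

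IDs were matched to the GENCODE M21 annotation of GRCm38 (37607 of 38924 with a symbol). The 12718 genes that reached 1 TPM in 4 or more libraries were fitted as log2(TPM + 1) with limma 3.58.1 in R 4.3.3, with type, an additive batch term and a variance trend, leaving 8 residual degrees of freedom. Differences are on that scale and understate changes of genes near 0. Tests are two-sided, with Benjamini-Hochberg adjustment over all genes tested, and the procedure was tested on simulated data. Transcripts were aligned with Biopython 1.88.

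The members and lists were chosen with earlier results of these data known. Companion genes were named by the 8 largest called changes per direction and comparison (a gene named for 1 comparison is also given in the others), other constant genes at 5 TPM or more in any library, like genes by the 5 highest correlations, and V rows by the 3 highest means in the type where the constant gene was highest. The closing section gives the alternatives tried.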

Additional observations from a re-analysis of the deposited data

Results flagged for a closer look

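Of 23 groups of 4 libraries with any spread (member levels and V sums at the heavy chain, kappa and gamma loci), 6 held a library far from the other 3; chance gives about 1 in 20. At the gamma locus, Tcrg-C1 was at 0.19 TPM in GMP batch 1 replicate 1 with the other GMP libraries listed at 0. Tcrg-C2 was at 0.24 TPM in LMPP batch 1 replicate 1 and Tcrg-C4 at 0.21 TPM in LMPP batch 2 replicate 1, again with the other LMPP libraries at 0. The gamma V sum was at 0.730 TPM in LMPP batch 2 replicate 1, against 0 in the other LMPP libraries. In CLP batch 2 replicate 2 it reached 5.64 TPM, while the other CLP libraries held 0 to 0.380 TPM. At the heavy chain locus, the V sum of GMP batch 2 replicate 1 was low, at 0.490 TPM against 7.25 to 8.09 TPM in the other GMP libraries, while its Ighm level of 155.84 TPM lay within the GMP range. Of these 6 groups, 4 have 3 libraries listed at 0, so any value above 0 stands out there.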

How the results depend on the processing

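Calls of companion genes between CLP and LMPP depended on the settings. From 18, they fell to 11 with a pseudocount of 0.1, 8 with no filter on low values, 10 with no batch term, 8 without the haemoglobin-rich pair and 8 without both CLP libraries of batch 2, and ranged from 7 to 21 when single libraries were left out. Between CLP and GMP, 30 calls became 13 without both CLP libraries of batch 2. The cause of these shifts was not tested. Between LMPP and GMP the count of 12 stayed within 10 to 12 when single libraries were left out. Of the 18, 30 and 12 called genes, 5, 15 and 9 were called under every alternative in which they passed the filter, and 0 changed direction.

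A replicate block (batch and replicate number together, in place of the batch term) gave 5, 28 and 10 calls for the 3 comparisons in the order above. Deviations of libraries with the same number and batch correlated at r of -0.106 to 0.169 over 6 pairs, and the labels name no shared animal or day, so the numbers were not taken as pairing.

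Members without overlap between CLP and LMPP rose from 1 to 2 without the haemoglobin-rich pair (Ighm added) and to 2 without both CLP libraries of batch 2 (Igkc added, higher in LMPP). The count was 1 to 3 when single libraries were left out, with 2 without LMPP batch 2 replicate 1 (Ighm added) and 3 without CLP batch 1 replicate 2 (Tcrg-C4 and Ighm added). Required within each batch, an alternative chosen after seeing the data, it was 3. Between CLP and GMP the count was 2 to 6 when single libraries were left out, with 6 without CLP batch 1 replicate 2. Single libraries moved some member means by over 1.5 times: without LMPP batch 2 replicate 1 the LMPP mean of Igkc was 470 TPM in place of 1020 and that of Tcrg-C1 0.333 TPM in place of 1.22, and without CLP batch 2 replicate 1 the CLP mean of Igkc was 138 TPM in place of 352. Rescaling without mitochondrial, ribosomal RNA and haemoglobin genes shifted the median of all genes by 0.108 (log2) between LMPP and GMP and moved no count by over 1.5 times.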
